A study of Homo sapiens with 6 samples.

Results

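The ERBB receptors, the adaptors and kinase that act next to them, and their negative regulators are described here in airway epithelial cells that overexpress the ERBB ligand NRG1. The 10 genes were chosen by name, as receptors, proximal adaptors and inhibitors for that ligand. All 10 were found by gene symbol among the 57736 genes of the expected count table, and 9 of them were among the 15421 genes that passed a filter on low counts and were tested. The cells were AALE, human bronchial basal epithelial cells transformed with SV40 and hTERT, which both groups carry, grown in small airway epithelial medium. They were transduced with a lentiviral control vector (3 libraries, control 1 to 3) or with a lentiviral vector overexpressing NRG1 (3 libraries, NRG1 1 to 3), and stable pools were selected before RNA extraction. Lentiviral transduction is the wording of the treatment protocol, whereas the sample descriptions say transfected. The promoter of the vector and the time after selection are not stated in the labels, and nothing there says that the libraries of a group came from separate cultures. The spread that the p-values rest on may therefore be technical.

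The ERBB family has 4 receptor tyrosine kinases that work in pairs. Neuregulins bind ERBB3 or ERBB4, and the bound receptor pairs with another family member, most often ERBB2, which has no known ligand of its own, whereas EGFR binds EGF, amphiregulin and related ligands. Phosphorylated receptor tails recruit adaptors such as SHC1 and GRB7, which link the receptor to RAS and other signalling proteins. PTK6 is a cytoplasmic tyrosine kinase of epithelial cells that can bind ERBB receptors. ERRFI1, LRIG1 and RNF41 restrain the receptors. In airway epithelium, neuregulin in the apical fluid is kept apart from its basolateral receptors until the epithelium is injured.

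ERBB3 differs from its relatives within the kinase domain itself, and the coding bases show where. In the catalytic loop, active kinases have an aspartate that acts as the catalytic base. The 45 bases around that codon are shown for the 4 receptors because they set ERBB3, which has little kinase activity of its own and signals through a partner, apart from the 3 receptors with an active kinase. They are coding-strand bases from GENCODE 29 transcripts, 5′ to 3′, with the codon for the catalytic base in capitals.
EGFR: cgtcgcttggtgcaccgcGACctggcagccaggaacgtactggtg
ERBB2: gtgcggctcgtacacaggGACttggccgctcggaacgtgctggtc
ERBB3: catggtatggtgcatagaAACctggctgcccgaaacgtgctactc
ERBB4: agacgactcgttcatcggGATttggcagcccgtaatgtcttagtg
The codon in capitals encodes aspartate in EGFR (codon 837 of 1210), ERBB2 (codon 845 of 1255) and ERBB4 (codon 843 of 1308). In ERBB3 it encodes asparagine (codon 834 of 1342). Over the whole window, ERBB2 and ERBB3 each share 30 of the 45 bases with EGFR, and ERBB4 shares 29. These are reference sequences, and the deposited tables hold no reads that would show the sequence in AALE cells.

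Library totals lay between 8612234 and 13207620 expected counts. Levels below are CPM, a gene's counts relative to the library's total, scaled between libraries by TMM, a method that sets the bulk of genes equal. NRG1, the targeted gene, had 11.6, 7.87 and 12.3 CPM in the controls, and the NRG1 libraries held 6647, 3854 and 3781 CPM, as the labels say; values by library follow the order of the replicate numbers throughout. Of the 10 airway basal cell markers all averaged at least 1 CPM, and KRT5 and TP63 ranged from 3141 to 6952 CPM and from 158 to 228 CPM. The summed level of the 8 secretory cell markers reached 28.3 CPM in control 3 and 59.6 CPM in NRG1 3, against at most 0.404 CPM in the other 4 libraries. The 6 leukocyte markers summed to 9.77 to 34.4 CPM, nearly all of it CD68 (3.69 to 32.0 CPM) and CD14 (1.698 to 6.82 CPM), while CD3E was at 0 and PTPRC at most at 0.154 CPM. Endothelial markers summed to 0.618 to 2.61 CPM, with CDH5 at 0, and ciliated cell markers to 3.03 to 16.1 CPM. Control 3 and NRG1 1 stood apart: control 3 was the highest of the 6 libraries in 29.9% of the tested genes and the lowest in 28.4%, and NRG1 1 was the highest in 21.7% and the lowest in 22.6%. Results that rest on these libraries are given with and without them.

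The mRNA levels of the receptors EGFR, ERBB2 and ERBB3 overlapped between the control and NRG1 libraries. PTK6 was at a level 2.01-fold higher and SHC1 at a level 0.704 times that of the controls, and these were the members whose groups did not overlap. Of the 9 members tested, 0 had an adjusted p under 0.05 (edgeR's quasi-likelihood test, Benjamini-Hochberg over all tested genes), where 0.00648% of all tested genes passed, NRG1 alone. At an unadjusted p under 0.05 there was 1 member on the higher side (PTK6) and 1 on the lower side (SHC1), with 5.08% and 6.72% of all tested genes on those sides. Groups that did not overlap were found for the same 2 members, against 9.36% of all tested genes with every NRG1 library higher and 10.2% with every NRG1 library lower. With 1 of 9 members (11.1%) on each side, the members' shares lay near those of all tested genes. DESeq2, a second count test on the same counts, called PTK6 as higher and SHC1 as lower, where it called 0.597% and 0.759% of all tested genes in those directions. With all libraries the median log2 fold change was -0.34 over the 9 members, 6 of them below 0, and 3e-04 over all tested genes. The members' median rested on control 3: without that library it was 0.072, with 2 of 9 below 0, and without control 3 and NRG1 1 it was 0.17.

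**Figure D1:**
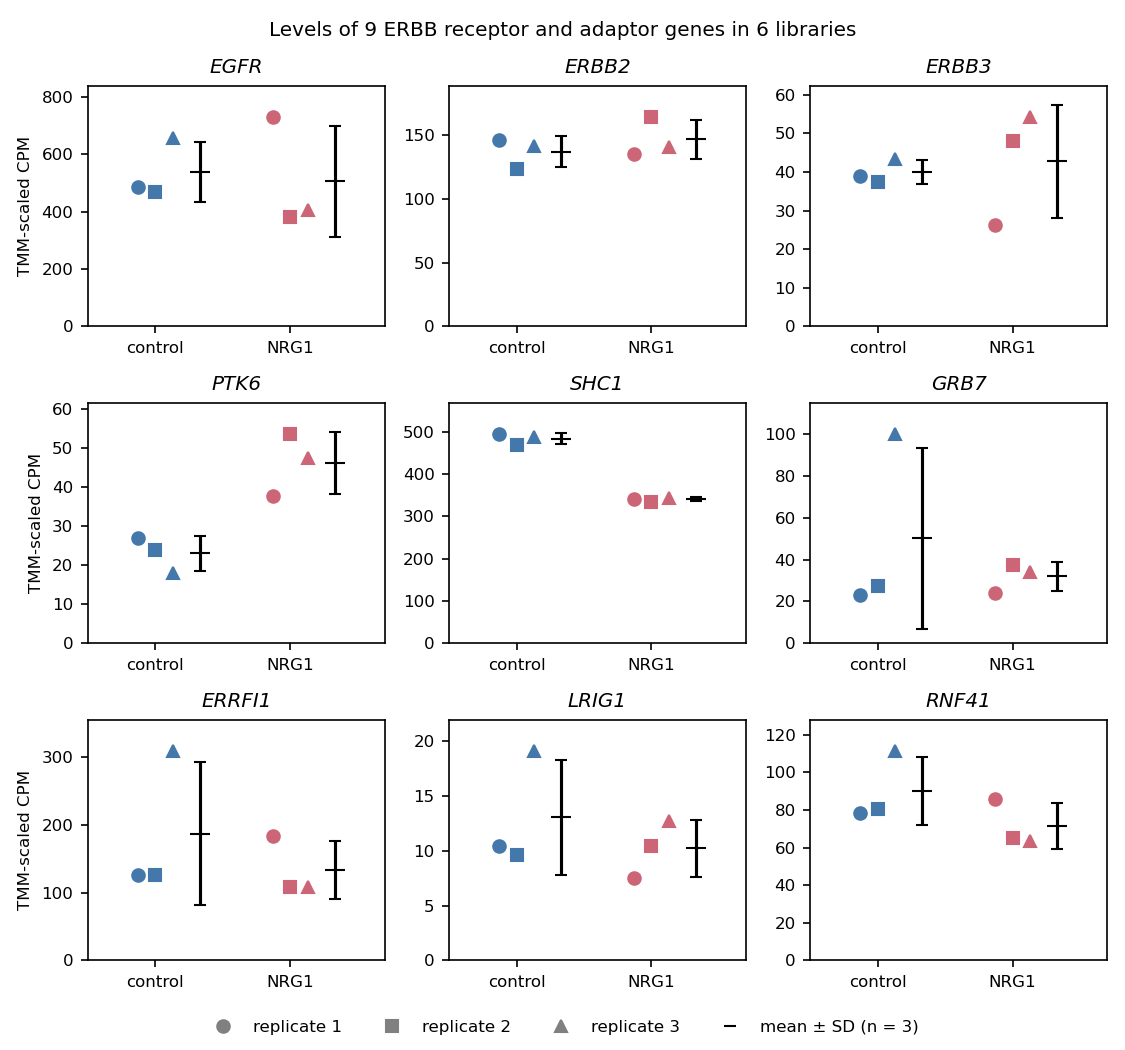
TMM-scaled CPM (vertical axes, starting at 0) of the 9 tested genes in control (blue) and NRG1 (red) libraries, with a symbol for each replicate number and the mean ± SD of 3 libraries in black. PTK6 and SHC1 are the panels in which the groups do not overlap, and control 3 lies highest in the panels of GRB7, ERRFI1, LRIG1 and RNF41.

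EGFR (ENSG00000146648, chromosome 7), the receptor of EGF and amphiregulin, had control levels of 486, 469 and 658 CPM. Its levels with the NRG1 vector were 729, 381 and 406 CPM. NRG1 1 held the highest level of all and the other NRG1 libraries the lowest, so that the control range lay inside the NRG1 range. The controls averaged 538 ± 105 CPM and the NRG1 libraries 505 ± 194 CPM (SD, n = 3 each). The log2 fold change of NRG1 over control was -0.09 (SE 0.27, 95% interval -0.71 to 0.53), with an adjusted p of 0.91 in edgeR. Without NRG1 1 it was -0.45 (SE 0.18, adjusted p = 0.268), and without control 3 it was 0.07 (SE 0.29).

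ERBB2 (ENSG00000141736, chromosome 17), the preferred partner of the other receptors, had the smallest spread of the 3 receptors tested, with a within-group SD of 0.139 on the log2 scale. The controls held 146, 123 and 141 CPM, the NRG1 libraries 135, 164 and 140 CPM. NRG1 2 was highest and control 2 lowest, with the other libraries between them. NRG1 over control was 0.10 on the log2 scale (SE 0.15, 95% interval -0.25 to 0.45, adjusted p = 0.808 in edgeR), an interval of 0.841-fold to 1.36-fold.

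ERBB3 (ENSG00000065361, chromosome 12), the neuregulin receptor with the altered catalytic codon shown above, had control levels of 39.1, 37.3 and 43.5 CPM. With the NRG1 vector it had 26.2, 48.0 and 54.2 CPM. The NRG1 libraries thus held both the lowest and the 2 highest levels, on either side of a narrow control range. The fitted difference was 0.10 on the log2 scale (SE 0.27, 95% interval -0.52 to 0.72, adjusted p = 0.898 in edgeR). Without control 3 and NRG1 1 it was 0.42 (SE 0.12), with an adjusted p of 0.0752. These 2 libraries were left out because they stood apart over all genes, so p-values of this comparison of 2 against 2 do not carry the spread that they add.

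ERBB4 (ENSG00000178568, chromosome 2), the other neuregulin receptor, was close to the detection limit. The table lists 2, 0 and 2 expected counts for the controls and 3 for each NRG1 library. With a floor of 3 counts, which is 0.232 to 0.371 CPM in these libraries, every library lay at or under the floor, and no fold change is given. The value of 0 in control 2 allows a level of up to 0.303 CPM, counting error only. ERBB4 did not pass the low-count filter and is not among the tested genes.

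Between genes, levels can be compared only per length, here as CPM per kilobase of exon. EGFR averaged 41.7 CPM per kb over the 6 libraries, ERBB2 13.7, ERBB3 4.58 and ERBB4 0.0166 CPM per kb. In each library EGFR lay above ERBB2, ERBB2 above ERBB3 and ERBB3 above ERBB4. EGFR made up 67.7%, 70.02% and 74.0% of the summed receptor level per kb in the controls, against 78.4%, 59.0% and 62.3% with NRG1. The share of ERBB3 was 7.55%, 7.72% and 6.77% in the controls, and NRG1 1, 2 and 3 had shares of 3.91%, 10.3% and 11.5%. NRG1 1 therefore had the smallest ERBB3 share and the largest EGFR share, while NRG1 2 and NRG1 3 had the largest ERBB3 shares. The size of the shares depends on the length used. With the longest transcript in place of all exons, EGFR averaged 53.1, ERBB2 28.7 and ERBB3 6.99 CPM per kb, which gives ERBB2 a larger share and EGFR a smaller one.

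**Figure D2:**
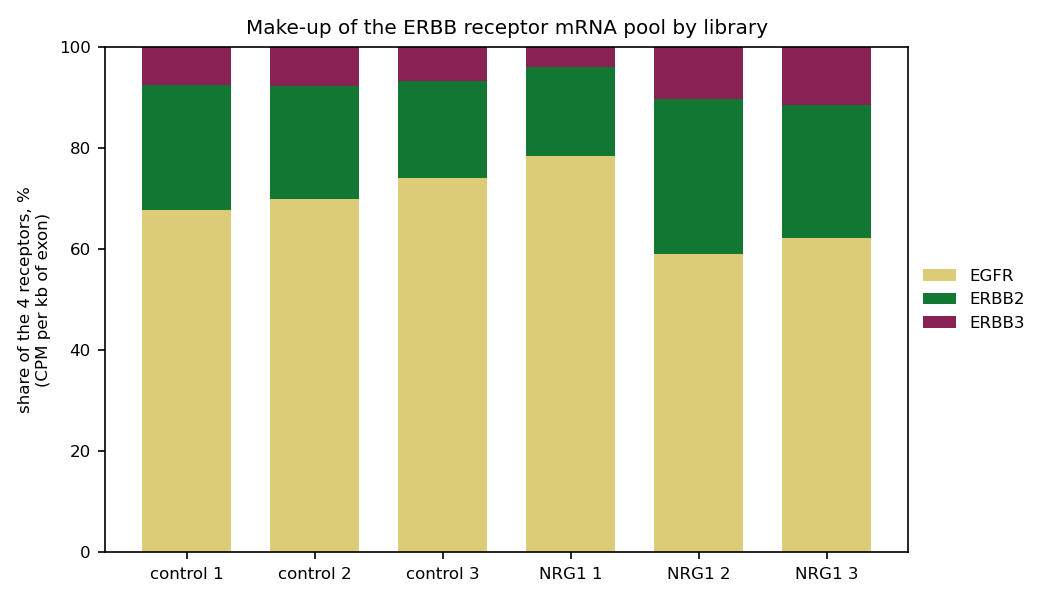
Share (%, vertical axis from 0 to 100) of each receptor in the summed level per kilobase of exon of the 4 ERBB receptors, 1 stacked bar per library. ERBB4, at most 0.0481%, is too small to draw. EGFR makes up 59.0% to 78.4% of the bars, with the largest share in NRG1 1.

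Ratios of receptors within a library do not depend on the scaling between libraries. The log2 ratio of ERBB3 to EGFR, per kilobase, was -3.17, -3.18 and -3.45 for the controls. For the NRG1 libraries it was -4.33, -2.52 and -2.43. The controls lay close together and inside the NRG1 range. The mean difference, NRG1 minus control, was 0.17 for ERBB3 to EGFR (two-sided exact permutation p = 1), 0.23 for ERBB2 to EGFR (exact p = 0.6) and -0.06 for ERBB3 to ERBB2 (exact p = 0.8). All 3 adjusted values were 1, and 0.1 is the smallest p that 3 against 3 libraries allow. Without NRG1 1 the mean differences were 0.79 for ERBB3 to EGFR, 0.59 for ERBB2 to EGFR and 0.20 for ERBB3 to ERBB2.

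Of the proteins next to the receptors, PTK6 (ENSG00000101213, chromosome 20) had the largest log2 fold change. The controls held 27.0, 23.9 and 18.1 CPM, the NRG1 libraries 37.6, 53.4 and 47.4 CPM. Every NRG1 library lay above every control, with NRG1 1 nearest to them. The means were 23.0 ± 4.54 and 46.2 ± 8.01 CPM (SD, n = 3 each), which is 1.01 on the log2 scale (SE 0.23, 95% interval 0.48 to 1.53), an interval of 1.40-fold to 2.90-fold. The adjusted p was 0.266 in edgeR and 0.013 in DESeq2. Without control 3 and NRG1 1 the log2 fold change was 0.98 (adjusted p = 0.00776 in edgeR). In that comparison 5.04% of all tested genes were called as higher and 4.79% as lower.

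SHC1 (ENSG00000160691, chromosome 1), the adaptor that carries receptor signals to GRB2 and RAS, went the other way and varied least within the groups. The controls held 494, 469 and 487 CPM, the NRG1 libraries 341, 335 and 344 CPM. The gap between the lowest control and the highest NRG1 library was several times as wide as either group. The log2 fold change was -0.51 (SE 0.13, 95% interval -0.80 to -0.21), or 0.575 to 0.862 times the control level. The adjusted p was 0.315 in edgeR, 0.0399 in DESeq2 and 0.0275 in edgeR without control 3 and NRG1 1. For PTK6 and SHC1 the two-sided exact permutation p of the log2 level was 0.1, the smallest possible, which any gene whose groups do not overlap reaches.

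The spread behind these values differed between genes far more than counting error. SHC1 had a within-group SD of 0.0312 on the log2 scale, against 0.0217 from counting alone. For PTK6 the values were 0.279 and 0.0768, for EGFR 0.411 and 0.0195, and for GRB7 0.849 and 0.0673. The counting is not stated to use the strand, so reads of overlapping genes on opposite strands cannot be told apart. On the strand opposite ERBB2, MIEN1 shares 571 exon bases with it and PGAP3 shares 194. MIEN1 held 267 to 504 expected counts per library and PGAP3 154 to 311, against 1092 to 1825 for ERBB2. AL451085.2, an antisense gene with 326 exon bases in common with SHC1, was listed at 105 to 124 expected counts per control library and 44.05 to 64.0 per NRG1 library, against 2760 to 6310 for SHC1. Expected counts are not scaled for library size. Library totals were 9549284 to 13207620 in the controls and 8612234 to 10609067 in the NRG1 libraries, so part of such a difference is depth. PYGO2, on the same strand, shares 335 exon bases with SHC1 and held 321 to 1035 expected counts, with control 3 lowest and overlapping groups. The copy SHC1P2 held 3.15 to 13.7 expected counts per library. Of the marker sums for other cell types, the fibroblast sum was lower in every NRG1 library than in every control, and the secretory, ciliated, leukocyte and endothelial sums overlapped. The 7 fibroblast markers summed to 43.1 to 67.9 CPM in the controls and 20.1 to 28.1 CPM with NRG1. COL1A1 made up most of that sum, 3 of the 7 averaged at least 1 CPM, and 0 of 7 were at 0 in all libraries. The 10 basal cell markers summed to 9694 to 13788 CPM in the controls and 6607 to 8079 CPM with NRG1, a sum carried by keratins. KRT14, KRT17 and NGFR were lower in every NRG1 library, the other 7, TP63 among them, overlapped, and KRT15 was highest in NRG1 2 and NRG1 3 (80.4 and 79.4 CPM, against at most 16.2 CPM elsewhere). Their part in the levels of SHC1 and PTK6 was not tested, and in bulk RNA fewer cells of a type and less RNA per cell cannot be told apart.

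GRB7 (ENSG00000141738, chromosome 17), an adaptor that binds ERBB2 and whose gene lies near it, had a direction that rested on control 3. The controls held 23.1, 27.3 and 99.7 CPM, the NRG1 libraries 24.2, 37.4 and 34.2 CPM. Control 3 lay above all other libraries, and NRG1 2 and NRG1 3 lay above the other controls. The log2 fold change was -0.65 (SE 0.53, adjusted p = 0.629 in edgeR) with all libraries. Without control 3 it was 0.34 (SE 0.23, adjusted p = 0.701), and without control 3 and NRG1 1 it was 0.51 (SE 0.15, adjusted p = 0.0688). ERBB2, its neighbour, was at 141 CPM in control 3, between the other controls. The secretory cell markers summed to 28.3 CPM in control 3 and to 59.6 CPM in NRG1 3, where GRB7 was at 34.2 CPM. Of these markers 4 of 8 averaged at least 1 CPM, and SCGB3A2 was at 0 throughout. Their part in the levels of control 3 was not tested.

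The 3 negative regulators had fold changes below 0 with all libraries, 1 of 3 without control 3, and 0 of 3 passed edgeR. ERRFI1 (ENSG00000116285, chromosome 1), a protein induced by receptor signalling that binds and blocks the EGFR kinase, had control levels of 126, 126 and 309 CPM. Its levels with the NRG1 vector were 184, 108 and 109 CPM. Control 3 was highest and NRG1 1 next, with the remaining libraries close together. Its log2 fold change was -0.49 (SE 0.38, adjusted p = 0.612 in edgeR) and 0.07 (SE 0.25) without control 3. LRIG1 (ENSG00000144749, chromosome 3), a transmembrane protein that promotes the degradation of ERBB receptors, had control levels of 10.5, 9.59 and 19.1 CPM. Its levels with the NRG1 vector were 7.54, 10.5 and 12.7 CPM. Its groups overlapped, with a log2 fold change of -0.35 (SE 0.35, adjusted p = 0.691), 0.03 without control 3. SLC25A26 on the opposite strand shares 907 exon bases with LRIG1 and held 152 to 277 expected counts, against 60.7 to 247 for LRIG1.

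RNF41 (ENSG00000181852, chromosome 12), the ubiquitin ligase that lowers ERBB3 protein in the absence of ligand, had control levels of 78.5, 80.6 and 111 CPM. With the NRG1 vector it had 85.7, 64.8 and 63.7 CPM, so NRG1 1 lay among the controls and the others below them. Its log2 fold change was -0.34 (SE 0.20, 95% interval -0.81 to 0.13, adjusted p = 0.526 in edgeR), -0.17 without control 3 and -0.49 without NRG1 1.

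**Figure D3:**
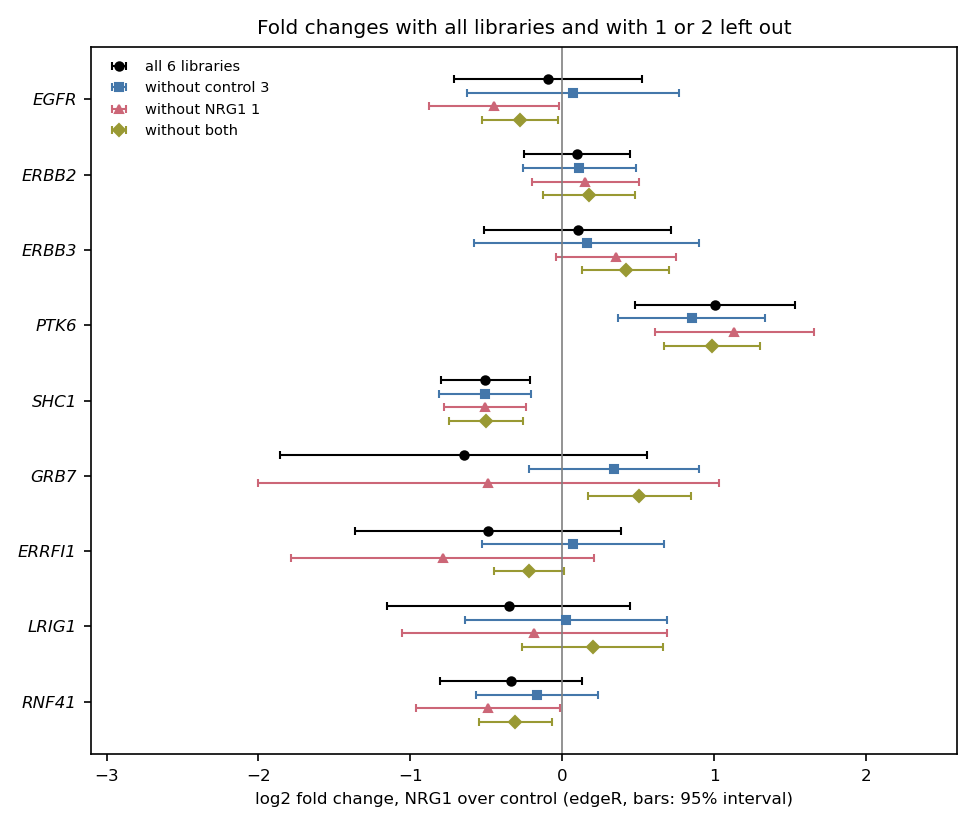
Log2 fold change of NRG1 over control (horizontal axis, bars are 95% intervals) of the 9 tested genes in edgeR with all 6 libraries, without control 3, without NRG1 1 and without both. PTK6, ERBB2 and ERBB3 stay right and SHC1 and RNF41 left of 0 in the 4 fits, while EGFR, GRB7, ERRFI1 and LRIG1 lie on both sides.

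EGFR, ERRFI1 and RNF41 shared an order that the group labels do not give: control 3 and NRG1 1 were the 2 highest libraries. That held for 3 of 9 members and for 12.2% of all tested genes. Among EGFR ligands, AREG (amphiregulin), EREG (epiregulin) and TGFA, chosen after their values were seen, had the same 2 libraries on top. HBEGF and BTC, the other EGFR ligands tested, did not. AREG had 223, 248 and 264 CPM (controls) and 363, 120 and 113 CPM (NRG1 libraries). EREG had 44.3, 39.0 and 51.7 CPM (controls) and 112, 22.9 and 25.7 CPM (NRG1 libraries). AREG and EREG were therefore highest in NRG1 1 and lowest in the other NRG1 libraries, as EGFR was. TGFA was highest in control 3, with 49.5, 59.8 and 132 CPM (controls) and 82.3, 61.7 and 64.0 CPM (NRG1 libraries). NRG1 1 also held the highest NRG1 level, 6647 CPM, against 3854 CPM in NRG1 2 and 3781 CPM in NRG1 3. What sets NRG1 1 apart was not tested.

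Per kilobase, SHC1 was the highest member, at 94.8 CPM per kb on average, above 97.9% of the tested protein-coding genes. EGFR and ERRFI1 (38.3 CPM per kb) followed at 93.2% and 92.4%, and their ranges overlapped. ERBB2 came next, then RNF41 (12.4), PTK6 (11.7) and GRB7 (11.4 CPM per kb), each with a range that overlapped that of its neighbour in the order. ERBB3, above 36.9% of the protein-coding genes, LRIG1 (1.66 CPM per kb) and ERBB4 followed without overlap. With the longest transcript in place of all exons, ERBB2 was at 28.7 CPM per kb, and GRB7 moved above RNF41 and PTK6. The receptors kept their order with both lengths.

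**Figure D4:**
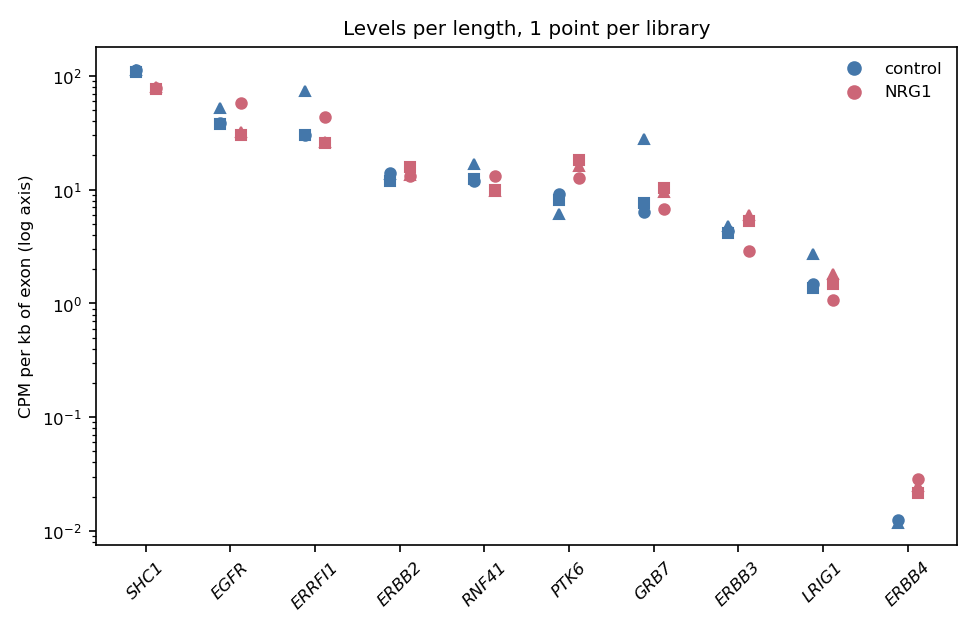
Level in CPM per kilobase of exon (log axis) of the 10 genes in order of their mean, 1 point per library, blue for control and red for NRG1, with circles, squares and triangles for replicates 1 to 3. ERBB4 in control 2, listed at 0, cannot be drawn on the log axis. SHC1 lies highest, and EGFR lies above ERBB2 and ERBB3.

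Of 89 other ERBB pathway genes listed, 82 were tested, and edgeR called 1 as higher, NRG1, and 0 as lower. DESeq2 called NRG1 as higher and HBEGF as lower, each 1.22% of the 82, against 0.597% and 0.759% of all tested genes. With no adjustment, at p under 0.05, 3 were higher (3.66% of the 82, against 5.08% of all tested genes) and 6 lower (7.32% against 6.72%). In every NRG1 library 5 were higher (6.1% against 9.36%) and 9 lower (11% against 10.2%), so these shares lay near those of all tested genes. Their median log2 fold change was -0.03 with all libraries and 0.03 without control 3. Among adaptors and signalling enzymes, 45 were tested and 0 were called. SOS2, a RAS exchange factor, averaged 45.4 ± 3.89 CPM without and 66.8 ± 6.11 CPM with the NRG1 vector (SD, n = 3 each), 0.56 on the log2 scale (SE 0.17, adjusted p = 0.335). VAV2, a guanine nucleotide exchange factor, had a log2 fold change of -0.53 (SE 0.17), PLCG1, a phospholipase that binds EGFR, -0.86 (SE 0.32), and the kinase SRC -0.35 (SE 0.14). The controls held 175, 194 and 406 CPM of PLCG1, and its NRG1 levels ran from 112 to 159 CPM. Without control 3 and NRG1 1 its log2 fold change was -0.22.

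Of the 29 genes of receptor turnover, trafficking and partners tested, 0 were called by edgeR with all libraries. SH3KBP1, an adaptor of CBL in the internalisation of EGFR, had control levels of 39.9, 31.5 and 37.2 CPM. Its levels with the NRG1 vector were 23.0, 22.2 and 23.6 CPM. Its groups did not overlap, with a log2 fold change of -0.66 (SE 0.19, adjusted p = 0.332 in edgeR and 0.0863 in DESeq2). Of the 8 ligands tested, BTC (betacellulin) had a log2 fold change of 1.34 (SE 0.49) with mean levels of 1.60 CPM (control) and 3.86 CPM (NRG1), and its groups overlapped. HBEGF, a ligand of EGFR and ERBB4, had 32.97, 40.2 and 198 CPM in the controls, and its NRG1 levels were 31.3, 14.9 and 17.3 CPM. The groups did not overlap, though control 1 lay close to NRG1 1. Its log2 fold change was -2.11 (SE 0.69, adjusted p = 0.358 in edgeR and 0.0459 in DESeq2) with all libraries, and -1.19 without control 3 and NRG1 1. In that comparison of 2 against 2, edgeR called 2 pathway genes as higher (NRG1 and SOS2) and 4 as lower (HBEGF, AREG, EREG and SH3KBP1). These are 2.44% and 4.88% of the 82, against 5.04% and 4.79% of all tested genes.

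The genes whose log2 CPM over the 6 libraries was most like that of a receptor are given as a description. For EGFR they were SEC23A (Pearson r = 0.996), SRBD1 (0.995) and RAI14 (0.993). For ERBB2 they were ATP2C1 (0.978), the pseudogene EIF3FP3 (0.958) and CTSA (0.957). For ERBB3 they were MON2 (0.992), ZNF75D (0.99) and NCBP3 (0.99). All points share the 6 libraries, and 387 of 11670 genes had an r above 0.9 with EGFR, 241 with ERBB3 and 15 with ERBB2.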

How the data were processed

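Per the submitters' processing notes, the tools were RSEM 1.3.0 and STAR 2.5.3a, beside FastQC 0.11.3 and MultiQC 0.9, on build hg19; no roles are given. The deposited expected counts of the authors were not normalized; RSEM shares reads that fit several genes, so they need not be whole. The authors' deposited log2 values of 14759 genes, 9 of the 10 members among them, match TMM-scaled log2 CPM made with prior count 0.25 (largest difference 5e-14) and were used for this check only. Counts were rounded and tested over 15421 genes with edgeR 4.0.16 in R 4.3.3 (filterByExpr, TMM, its newer quasi-likelihood dispersion method, no covariate); DESeq2 1.42.0 and limma 3.58.1 gave alternatives. Intervals cover 95%. Symbols came from a name table. Exon lengths came from GENCODE 29, a GRCh38 annotation, so no coordinates are given. The fitting was run on simulated counts to check that it recovers fold changes. No simulated library stood apart as control 3 and NRG1 1 did, so that run does not bear on which genes were called here. The members, lists and settings were chosen with earlier results of these data known. Named are the members, NRG1, up to 10 pathway genes with an unadjusted p under 0.05, and the 3 genes with a mean of at least 5 CPM most like each receptor. A result that this rule would name is not reported here. Deviations of same-numbered libraries from their group means correlated at 0.02, 0.125 and -0.08. These means of 3 libraries include control 3 and NRG1 1, so the correlations cannot decide whether replicate numbers pair the libraries. Replicates of a group differed by more than sampling noise, though NRG1 2 and NRG1 3 were far closer than any other pair. Their chi-square per degree of freedom was 2.66, against 18.8 to 65.7 for the other pairs within a group. This close pair forms the NRG1 side of the comparison of 2 against 2, so the p-values of that comparison rest on a small spread.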

Additional observations from a re-analysis of the deposited data

How the results depend on the processing

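Across 18 other settings, PTK6 stayed above 0 (log2 fold change 0.85 to 1.14, adjusted p 0.00662 to 0.854) and SHC1 below 0 (-0.53 to -0.46, adjusted p 0.0125 to 0.854), and each passed the threshold in 3 settings: DESeq2, limma-voom with quality weights, and the comparison of 2 against 2 without control 3 and NRG1 1. In these 3 settings 2 members were called, where 209, 1605 and 1515 genes were called over the whole table. The comparison of 2 against 2 does not carry the spread that the left-out libraries add. In the other 15 settings 0 members were called. ERBB2 and RNF41 kept their sign in all 18. Over the whole table, 1 gene was called, against 209 in DESeq2, 21 without a low-count filter, 2 in limma-trend with either pseudocount and in limma-voom without rounding, 1605 with quality weights and 1515 in 2 against 2. Of the other pathway genes, 1 was called, against 2 in DESeq2 and 6 with quality weights and in 2 against 2. With the replicate number as a block, 2 genes were called in all and 0 members; control 2 and control 3 did not deviate most like the NRG1 library of their own number. GRB7 was at 0.32 with quality weights and 0.51 in 2 against 2, and LRIG1 at 0.14 and 0.20. The log2 ratio of ERBB3 to ERBB2 was 0.24 higher in NRG1 in 2 against 2. Leaving out 1 library at a time gave 1 to 37 genes (37 without NRG1 1), 0 members and 1 pathway gene, and log2 fold changes of -0.45 to 0.0763 for EGFR, -0.10 to 0.35 for ERBB3, -0.99 to 0.34 for GRB7, -0.79 to 0.072 for ERRFI1 and -0.53 to 0.0262 for LRIG1. The ratio differences then ran from -0.0194 to 0.59 (ERBB2 to EGFR), -0.16 to 0.79 (ERBB3 to EGFR) and -0.29 to 0.20 (ERBB3 to ERBB2). The causes were not tested. The older edgeR dispersion method was added after seeing the data and called 1 gene and 0 members. Depth limits ERBB4, at or under 3 counts in each library; for LRIG1 the spread between replicates (SD 0.467 on the log2 scale) was larger than the counting SD of 0.128.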

Other observations

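MUC4, a membrane mucin that can bind ERBB2, did not pass the low-count filter and is not among the 15421 genes tested. The controls held 4, 0 and 13 expected counts, and the NRG1 libraries 0, 89 and 94.4, which is 8.32 and 10.2 CPM in NRG1 2 and NRG1 3 and at most 1.004 CPM elsewhere. Control 3 and NRG1 3 also carried airway secretory transcripts. NRG1 2, with 8.32 CPM of MUC4, held 0 counts of the 8 secretory markers. A link between these transcripts and the MUC4 level was not tested. MUC4 and SHC4 were chosen after their values were seen. SHC4, a relative of SHC1, did not pass the filter either. Its expected counts were 7, 2 and 26 for the controls, most of them in control 3, and 0, 2 and 1 for the NRG1 libraries. In edgeR without that filter, the adjusted p was 0.322 for MUC4 and 0.385 for SHC4.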
